A study of Mus musculus with 4 samples.

Results

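Vimentin, galectin-1 and 8 further cytoskeletal and calcium-binding genes, which are linked to T cell maturation or activation, were examined in mouse CD4+CD8+ double-positive (DP) thymocytes of control mice and of mice in which Cre targets Usp8. The genes are Vim, Lgals1, S100a4, S100a6, S100a10, S100a11, Anxa2, Crip1, Emp3 and Tmsb10, and they were found through the non-control probes carrying one of these names in the array design. All 10 genes were on the array, with 14 of its 41174 probes, and all 10 were among the 13062 genes measured. The set was selected on the signals of Vim and Lgals1, which were known to be higher in USP8ff_CD4Cre on these same arrays, so the genotype differences below are descriptions without a test.

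Cells were sorted from untreated, sex-matched littermates of 6 to 12 weeks that all carried loxP-flanked Usp8 alleles. USP8ff mice had no Cre and served as controls, and USP8ff_CD4Cre mice also expressed Cre under Cd4 regulatory sequences, which act from the DP stage onward. Each genotype had 2 samples, and each sample pooled 2 mice, 8 mice in all, and they are called control pools and Cre pools here. Every SD given here measures the spread between pools and not between mice. Each SE comes from limma, where eBayes draws the pool variance of a gene toward a value shared by all genes. An SE can therefore be smaller or larger than the spread of that gene alone would give. No group had Cre without the floxed alleles, and effects of Cre and of the deletion cannot be told apart.

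Vimentin is the intermediate filament protein of lymphoid and mesenchymal cells. Galectin-1 is a secreted lectin that binds galactose-containing glycans on thymocytes and T cells. S100 proteins are small calcium sensors that work as dimers, and one of them, S100A10, forms a complex with annexin A2 at the plasma membrane. Thymosin beta-10 holds actin monomers in reserve. Many of these genes are known to be more active in activated or memory T cells than in resting thymocytes.

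Levels are log2 processed signals minus the log2 75th percentile of the same array. The arrays had 18535 to 20153 probes (45.0% to 48.9%) well above background. Usp8 was lower in both Cre pools, at -0.23 and -0.40 in USP8ff and -1.03 and -1.23 in USP8ff_CD4Cre, on a probe that was not placed relative to the loxP sites and so does not by itself check the deletion. All 15 DP-stage genes examined, among them Cd4, Cd8a, Cd8b1, Rag1 and Rag2, were well above background on all 4 arrays. Over all genes limma called 0 of 13062 (0%), with a smallest adjusted p of 0.29, so none of the 10 genes passed. Without adjustment, limma p-values under 0.05 went to 970 genes, 518 higher (3.97%) and 452 lower (3.46%) with Cre, or 337 and 485 when the arrays were scaled on their medians.

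Of the 10 genes, 5 were higher in both USP8ff_CD4Cre pools than in either USP8ff pool: Vim, Lgals1, Crip1, Emp3 and Anxa2. A further 2, S100a6 and Tmsb10, were lower in both, and the pools overlapped for S100a4, S100a10 and S100a11. Among all genes 24.3% lay higher and 16.3% lower in this way. The median log2 difference, USP8ff_CD4Cre minus USP8ff, was 0.11 over the 10 genes and 0.02 over all genes, and 6 of the 10 differences were above 0, against 54.8% of all genes. These counts and the median include Vim and Lgals1, which were selected for being higher. Apart from them, Crip1, Emp3, Anxa2 and S100a10 had positive differences, and S100a4, S100a6, S100a11 and Tmsb10 negative ones. The 10 genes thus had both signs, as all genes did. None of the 4 S100 genes was among the higher ones, against 24.3% of all genes, so with 4 genes this is a description only. In bulk samples such as these, fewer cells of a type and less RNA per cell cannot be told apart.

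**Figure D1:**
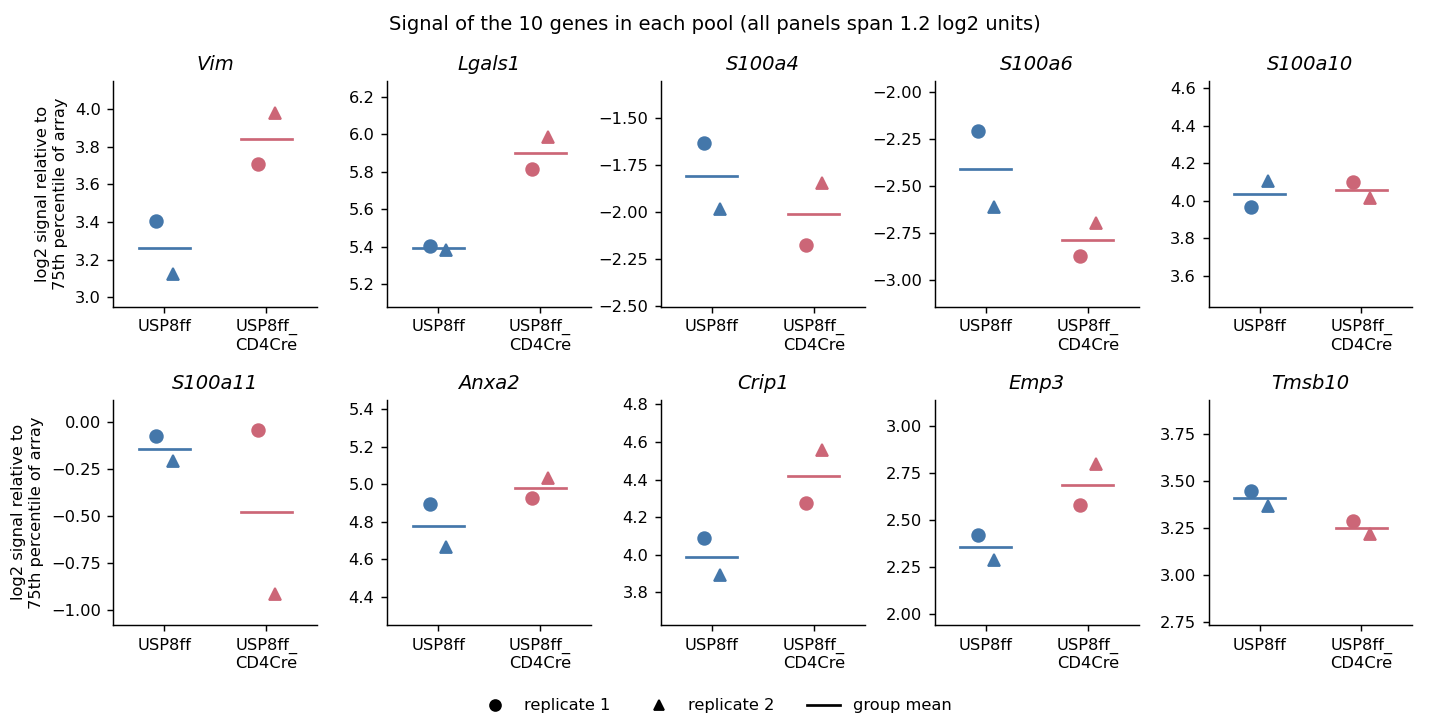
Log2 signal of the 10 genes in each pool, relative to the 75th percentile of its array; circles are replicate 1, triangles replicate 2 and bars the mean of 2 pools. Vim, Lgals1, Crip1, Emp3 and Anxa2 are higher in both USP8ff_CD4Cre pools, S100a6 and Tmsb10 lower in both, and the pools of S100a4, S100a10 and S100a11 overlap.

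Vim, the filament gene, had log2 levels of 3.40 and 3.12 in control pools 1 and 2, and 3.71 and 3.98 in Cre pools 1 and 2. Both Cre pools stood above both controls, with replicate 2 at the far end in each genotype. The means were 3.26 ± 0.20 (SD, n = 2) and 3.84 ± 0.19, a log2 difference of 0.58 ± 0.16 (SE) or 1.5-fold. This was larger than the difference of 99.1% of the genes measured. It rested on 1 probe (mm9, chr2:13504232-13504291). The other Vim probe (chr2:13498766-13498825) stayed below the well-above-background call on all 4 arrays and gave no value. The first 30 of the 60 bases of each are shown because only the former carries the result.
Vim probe with signal: gcagtttttcaggagcgcaagatagatttg
Vim probe without signal: gtaagtgttttgatctgtcatcctaaaaca

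Lgals1, which encodes galectin-1, had log2 levels of 5.41 and 5.38 (control pools) and 5.81 and 5.98 (Cre pools). The control pools nearly coincided and both Cre pools lay above them. The means were 5.39 ± 0.02 (SD, n = 2) and 5.90 ± 0.12, a log2 difference of 0.50 ± 0.12 (SE) or 1.42-fold. Of all genes, 98.3% had a smaller difference. Vim and Lgals1 were the 2 of the 10 with a difference of at least 0.5, a size that 1.76% of all genes reached. Both were selected for being higher, so their ranks and this share are descriptions only. With quantile normalization the Lgals1 difference was 0.41. Lgals1 had a single probe (mm9, chr15:78760566-78760625), and its first 30 bases identify the site read.
Lgals1 probe: tttgagtgaagccagccagcctgtagccct

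Crip1, a small protein made of a LIM zinc-binding domain, had 2 probes that gave nearly the same picture. On the one with the higher mean (mm9, chr12:114391719-114391993, an alignment of 60 bases over a longer span) the log2 levels were 4.09 and 3.89 (control pools) and 4.27 and 4.56 (Cre pools). The difference was 0.43 ± 0.15 (SE) or 1.34-fold, larger than that of 97.0% of genes, and 0.28 without Cre pool 2. The second probe, designed on another sequence record and unmapped in the scanner files, read 4.02 and 3.76 (control pools) and 4.27 and 4.49 (Cre pools), a difference of 0.49 ± 0.15. The probes overlap by 35 bases and differ at 2 of them, G28A and C49T, counted from the 5′ end of the first probe. Each probe is 60 bases long, and 30 of the shared bases are shown with both differing positions in capitals.
Crip1 first probe: gaGagccacactttcaagtagacCgaggtt
Crip1 second probe: gaAagccacactttcaagtagacTgaggtt

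Emp3, a membrane protein of the PMP22 family, had log2 levels of 2.42 and 2.28 (control pools) and 2.58 and 2.79 (Cre pools) (mm9, chr7:53175332-53175391). The difference was 0.33 ± 0.13 (SE) or 1.26-fold, and 94.2% of genes had a smaller one. The gap between the Cre pools, 0.22, came to less than the difference between genotypes.

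Anxa2, the calcium- and phospholipid-binding partner of S100A10, had log2 levels of 4.89 and 4.67 (control pools) and 4.93 and 5.03 (Cre pools) (mm9, chr9:69337510-69337569). Although the pools did not overlap, USP8ff replicate 1 and USP8ff_CD4Cre replicate 1 were only 0.03 apart. The difference, 0.20 ± 0.13 (SE), was smaller than the gap of 0.23 between the control pools. It was 0.09 without control pool 2 and 0.31 without control pool 1. A second probe (chr9:69330846-69331620) read 3.97 and 3.65 (control pools) and 3.83 and 4.12 (Cre pools), so that its pools overlapped, with a difference of 0.17 ± 0.17.

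The S100 genes did not share the order of arrays of Vim, which 10.1% of all genes had. S100a10, the annexin A2 partner, had log2 levels of 3.97 and 4.11 (control pools) and 4.10 and 4.01 (Cre pools). The pools overlapped, with a gap of 0.14 between the control pools, and the difference was 0.02 ± 0.11 (SE). With quantile normalization that difference was -0.05, so no direction can be given.

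S100a6, or calcyclin, had log2 levels of -2.21 and -2.61 (control pools) and -2.87 and -2.70 (Cre pools). Both Cre pools were lower, yet USP8ff replicate 2 and USP8ff_CD4Cre replicate 2 lay 0.09 apart and the control pools 0.40 apart. The difference was -0.38 ± 0.17 (SE), becoming -0.18 if control pool 1 was left out and -0.58 if control pool 2 was. The processed intensities were low, 127.6 and 97.2 (control pools) and 72.6 and 86.4 (Cre pools), where the lowest signal well above background on an array was 24.9 to 40.4.

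S100a4, a cytoskeleton-binding S100 protein also used as a marker of effector and memory T cells, had log2 levels of -1.63 and -1.99 (control pools) and -2.17 and -1.85 (Cre pools). The pools overlapped, and the difference of -0.20 ± 0.18 (SE) became -0.02 without control pool 1, -0.04 without Cre pool 1, -0.38 without control pool 2 and -0.36 without Cre pool 2. S100a11, or calgizzarin, read -0.07 and -0.20 (control pools) and -0.04 and -0.91 (Cre pools). One pool, Cre pool 2, was low, and Cre pool 1 was the highest of the 4. Its difference of -0.34 ± 0.29 (SE) became 0.10 without that pool and -0.78 without Cre pool 1.

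The probes of all 4 S100 genes map to chromosome 3, with S100a4 and S100a6 (mm9, chr3:90409842-90409902 and chr3:90418160-90418219) and S100a11 and S100a10 (chr3:93330017-93330076 and chr3:93368437-93368496) lying close to each other as pairs. Their probes shared runs of 6 to 8 bases in the 6 pairs compared, on either strand. S100a11 was low in Cre pool 2, and S100a10 was not.

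Tmsb10, the actin-monomer-binding peptide, had log2 levels of 3.45 and 3.37 (control pools) and 3.29 and 3.22 (Cre pools). Both Cre pools were lower and the pools of a genotype were within 0.08 of each other. The difference was small, -0.16 ± 0.11 (SE) or 0.90-fold. The second probe, next to the first on the genome (mm9, chr6:72907922-72907981 and chr6:72907599-72907918), read 2.34 and 2.29 (control pools) and 2.23 and 2.01 (Cre pools), a difference of -0.19 ± 0.13. All 3 genes with several kept probes, Anxa2, Crip1 and Tmsb10, therefore had the same sign on both. Both probes of a gene read the same pools, and those of Crip1 overlap, so this adds no replication.

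The difference exceeded the gap between pools in both genotypes for 5 of the 10 genes, Vim, Lgals1, Crip1, Emp3 and Tmsb10, against 27.3% of all genes. Of these, Vim and Lgals1 were selected for being higher. The median gap between the pools of a genotype was 0.17 in USP8ff and 0.20 in USP8ff_CD4Cre for the 10 genes, and 0.15 and 0.13 for all genes.

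In each of Vim, Lgals1, Crip1, Emp3 and Anxa2 the arrays ranked, from high to low, USP8ff_CD4Cre replicate 2, USP8ff_CD4Cre replicate 1, USP8ff replicate 1 and USP8ff replicate 2. This order held for 10.1% of all genes, and for 1324 of the 3172 genes (41.7%) that, like these 5, were higher in both Cre pools. Cre pool 2 was the highest array for 5 of the 10 genes, against 31.7% of all genes, and control pool 2 the lowest for 5, against 29% of all. Both held for the same 5, against 14% of all. The 5 were picked out by lying higher in both Cre pools, which fixes the rank between genotypes, so these shares are a description only. Of 28 mitotic and DNA replication genes, all measured, 27 were higher in both Cre pools, against 24.3% of all genes. This order held for 26 of them, against 10.1% of all genes and 41.7% of the genes higher in both Cre pools. The mean of that list, relative to its mean over the 4 arrays, was 0.40, 0.06, -0.13 and -0.33 in the same order of arrays. All 28 had positive differences, against 54.8% of all genes, with a median of 0.49 that went to 0.31 without USP8ff_CD4Cre replicate 2, and 0 passed over all genes. The part of cycling cells in the higher Vim, Lgals1, Crip1, Emp3 and Anxa2 signals was not tested.

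**Figure D2:**
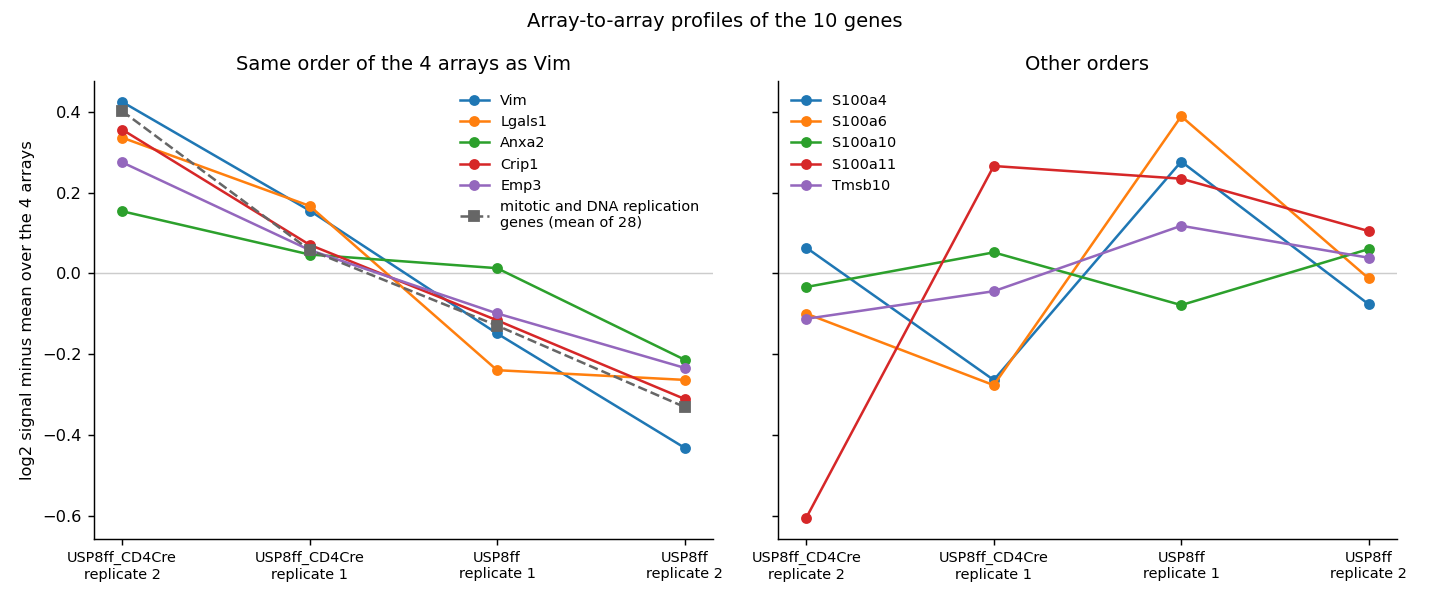
Log2 signal of each of the 10 genes on each array minus its own mean over the 4 arrays, with arrays placed in the order of Vim and lines joining the values of a gene; the dashed line is the mean of 28 mitotic and DNA replication genes. The left panel holds the 5 genes higher in both Cre pools, which have the same order of arrays as that line, and the right panel holds the S100 genes and Tmsb10.

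The genes nearest to Vim over the 4 arrays, by Euclidean distance between centred log2 signals, were Esco2 (distance 0.02), Emp1 (0.04) and Dna2 (0.06), with differences of 0.56, 0.57 and 0.53. The nearest to Lgals1 were Ccno (0.04), Rdm1 (0.05) and Dubr (0.06), with 0.48, 0.49 and 0.45. Lgals1 itself ranked as number 187 in likeness to Vim, at 0.21. With 4 arrays such closeness is a description only.

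The measured LIM protein genes, and Emp1 of the Emp3 family, had positive differences. Of the 10 genes listed as cysteine-rich LIM proteins, other LIM-only proteins or members of the PMP22 and EMP family, 6 were measured. All 6 had positive differences, against 54.8% of all genes, and all 6 were higher in both Cre pools, against 24.3%. All 6 followed the order of arrays seen for Vim, against 10.1% of all genes. Among genes higher in both Cre pools, which fixes the rank between genotypes, that share was 41.7%. The median difference was 0.36, against 0.02 for all genes, and 0 passed over all genes. Csrp2, a LIM protein of the actin cytoskeleton, had log2 levels of -0.72 and -0.80 (control pools) and -0.29 and -0.25 (Cre pools), a difference of 0.48 ± 0.11 (SE, limma adjusted p = 0.66). Crip2, the closest relative of Crip1 on the list by name, read 0.01 and -0.12 (control pools) and 0.36 and 0.46 (Cre pools), a difference of 0.47 ± 0.11 (limma adjusted p = 0.66). Emp1, the only gene of the Emp3 family measured on this list, had 0.57 ± 0.16. The smallest of the 6 differences was that of Fhl2, a LIM protein, at 0.12 ± 0.10.

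Differences in the other families had both signs, where 54.8% of all genes had positive ones. Of 15 names listed for the S100 family outside the 10 genes, 5 were measured, 2 with positive and 3 with negative differences (median -0.0047). The list includes S100pbp, which encodes an S100-binding protein and is not an S100 gene. S100a3 had -0.48 ± 0.23 (SE) and S100a13 0.16 ± 0.12. Of 11 further annexins 5 were measured, 4 of them with positive differences (median 0.10), with Anxa4 at 0.24 ± 0.17 and Anxa6 at 0.21 ± 0.18. Of 9 further galectins 6 were measured, 2 with positive differences (median -0.15). Among them Lgals9 had 0.23 ± 0.15 and Lgals3, well above background in only 1 of the 2 Cre pools, -0.57 ± 0.44. No gene of these lists passed over all genes. None had the order of arrays of Vim, which 10.1% of all genes had, so with so few genes this is a description only.

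Other filament and actin genes were mixed as well. Of the 7 measured intermediate filament, lamin and linker genes 3 had positive differences (median -0.02), led by the lamin genes Lmnb2 (0.30 ± 0.13, SE) and Lmnb1 (0.20 ± 0.19). All 40 actin genes and actin regulators listed were measured, with a median of 0.06. Of these, 28 had positive differences, against 54.8% of all genes. The order of arrays of Vim held for 3, against 10.1% of all genes. Tpm4, a tropomyosin, had log2 levels of 3.51 and 3.56 (control pools) and 3.81 and 3.96 (Cre pools), a difference of 0.35 ± 0.11. Rdx, which links actin to the membrane, had 0.32 ± 0.11. With quantile normalization the median of the actin list was -0.0041, and 0 of these genes passed over all genes.

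**Figure D3:**
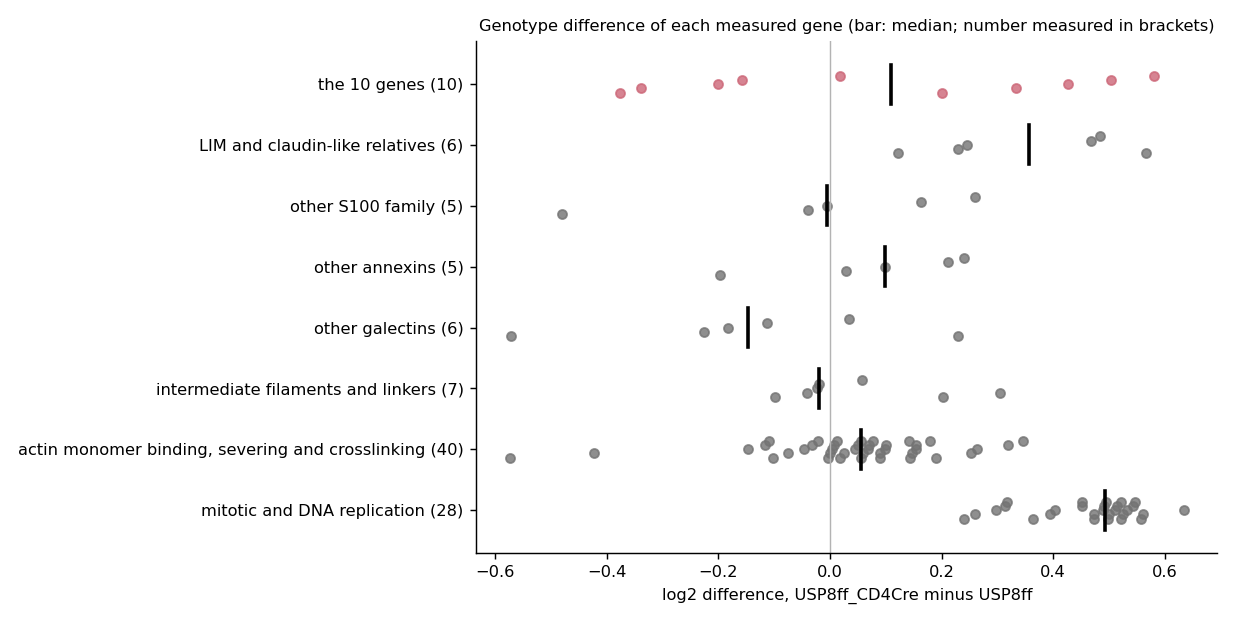
Log2 difference, USP8ff_CD4Cre minus USP8ff, of each measured gene in 8 groups, with the median as a black bar and the number of genes in brackets. The LIM and EMP relatives (median 0.36) and the mitotic genes (0.49) lie wholly above 0, while the 10 genes spread from -0.38 for S100a6 to 0.58 for Vim.

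Genes that thymocytes gain on leaving the DP stage had mostly negative differences, and 0 passed over all genes. Of 22 listed 18 were measured, and 15 of these had negative differences, against 5907 of all 13062 genes. Of the 18, 10 were lower and 3 higher in both Cre pools, against 16.3% and 24.3% of all genes. The smallest limma adjusted p of the list was 0.29. The median of the 18 was -0.40. It became -0.15 when only probes well above background on all 4 arrays were used and -0.14 without USP8ff replicate 2. Klf2 (0.23 ± 0.12, SE), Cd5 (0.07 ± 0.11) and Cd69 (0.06 ± 0.10), chosen after their values were seen, had the 3 positive differences. They are the exceptions to the direction of the list, and the 15 genes with negative differences are not named here.

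Vimentin, galectin-1 and S100 genes are also active in stromal cells, macrophages and granulocytes, whose markers were therefore examined. Of 18 markers of thymic stroma, fibroblasts and endothelium 10 were well above background on 0 of 4 arrays, among them Col1a1, Col3a1, Dcn, Pdgfra and Fn1. The summed signal of the 5 measured, as multiples of the 75th percentile, was 1.4 to 1.5 in the control pools and 1.3 to 1.4 in the Cre pools. Here and below, such a sum is weighted toward its brightest genes and is no measure of cell content. Col1a2 (0.32 ± 0.19, SE) and Krt5 (0.22 ± 0.12, well above background in 1 of the 2 control pools) had positive and Epcam (-0.47 ± 0.13) a negative difference. Of the 21 names listed for macrophages and dendritic cells, 10 were measured, with sums of 4.09 to 4.37 in USP8ff and 3.13 to 3.31 in USP8ff_CD4Cre. The median difference of these 10 was -0.09, and 6 of them overlapped between genotypes, as did 7765 of all 13062 genes. Ctss, a lysosomal protease, had log2 levels of -0.37 and 0.08 (control pools) and -1.92 and -2.29 (Cre pools), a difference of -1.96 ± 0.21, while C1qb, a complement component well above background in 1 of the 2 control pools, had 0.25 ± 0.13. Of the granulocyte markers, Mpo alone was measured, and S100a8 was well above background on 0 of 4 arrays. Of 9 markers of regulatory and effector T cells 5 were measured, with sums of 22.0 to 25.1 in the control pools and 19.1 to 19.3 in the Cre pools and a median difference of -0.39. It was -0.27 without control pool 2. Among 12 markers of NK, innate and gamma-delta T cells 5 were measured, with a median of -0.86 and sums of 4.28 to 4.37 in the control pools and 3.94 to 5.29 in the Cre pools. That median became -0.56 without control pool 2 and -0.35 over the 4 probes well above background on all arrays. Nkg7, a cytotoxic granule protein, had a difference of -2.09 ± 0.18, and the cytokine receptor subunit Il2rb, well above background in 1 of the 2 Cre pools, -2.02 ± 0.34. Prf1, or perforin, had -0.86 ± 0.21, while the granzyme Gzma (0.42 ± 0.20) and the transcription factor Tbx21 (0.15 ± 0.10) were higher in both Cre pools. Gzma had the highest level of these 5 on every array and made up most of their sums. The 3 of 9 B cell markers that were measured all overlapped, with a median of -0.29 that became -0.04 without control pool 2. So did the 4 of 10 erythroid markers that were measured, and 7765 of all 13062 genes overlapped as well. Among the erythroid markers, Hba-a2 and Hbb-bt were highest in Cre pool 2, while Car1 and Car2 were lowest there. Hba-a2 read -3.24 and -3.18 (control pools) and -3.21 and -1.58 (Cre pools), and Car2 0.19 and -0.23 (control pools) and -0.15 and -1.29 (Cre pools). No marker passed over all genes. The part of other cells in the S100a4, S100a6 and S100a11 signals was not tested.

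Promoters of 8 of the 10 genes were found in RefSeq (GRCm38.p6), 11 starts in all, since some genes have several. For this description 4 motifs were searched on both strands in the 50 and the 250 bases before each start, and their shares over all 32851 promoters are given beside the counts. TATAAA was present for Vim, Anxa2, Emp3 and S100a4, in 4 of the 11 promoters in either window, against 3.5% of all promoters in 50 bases and 12.4% in 250. The motif GGGCGG, known as the GC box, was present within 50 bases for Anxa2, Crip1 and S100a11, in 3 promoters against 16.1% of all, and within 250 bases in 6 against 32.7%. CCAAT was in 0 of the 11 within 50 bases, against 8.56%, and in 2 within 250, against 33.8%. TGANTCA was in 1 within 50 bases, against 1.12%, and in 2 within 250, against 6.75%. S100a4 and S100a11 are among the genes whose pools overlapped. The 100 bases before the start of the 4 higher genes that matched are shown to let these be compared, 5′ to 3′ along the gene with TATAAA and GGGCGG in capitals; Emp3 has 2 starts, and the one with the motif is given.
Vim, chr2:13574211-13574310, plus strand: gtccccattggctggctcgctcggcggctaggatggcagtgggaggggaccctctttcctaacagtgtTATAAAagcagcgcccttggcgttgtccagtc
Anxa2, chr9:69453583-69453682, plus strand: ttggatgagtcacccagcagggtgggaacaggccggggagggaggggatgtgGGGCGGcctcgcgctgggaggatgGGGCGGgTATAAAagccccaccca
Crip1, chr12:113151912-113152011, plus strand: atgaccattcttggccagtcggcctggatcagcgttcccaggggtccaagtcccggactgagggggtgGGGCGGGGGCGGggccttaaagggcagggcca
Emp3, chr7:45921427-45921526, minus strand: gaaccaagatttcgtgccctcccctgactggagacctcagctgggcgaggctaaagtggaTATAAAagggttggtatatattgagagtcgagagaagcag
The TATAAA began 32 bases before the start in Vim, 17 in Anxa2 and 40 in Emp3, and Crip1 had 2 adjacent GGGCGG copies and no TATAAA in the bases shown. A match is a description of the letters and not of a working site.

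**Figure D4:**
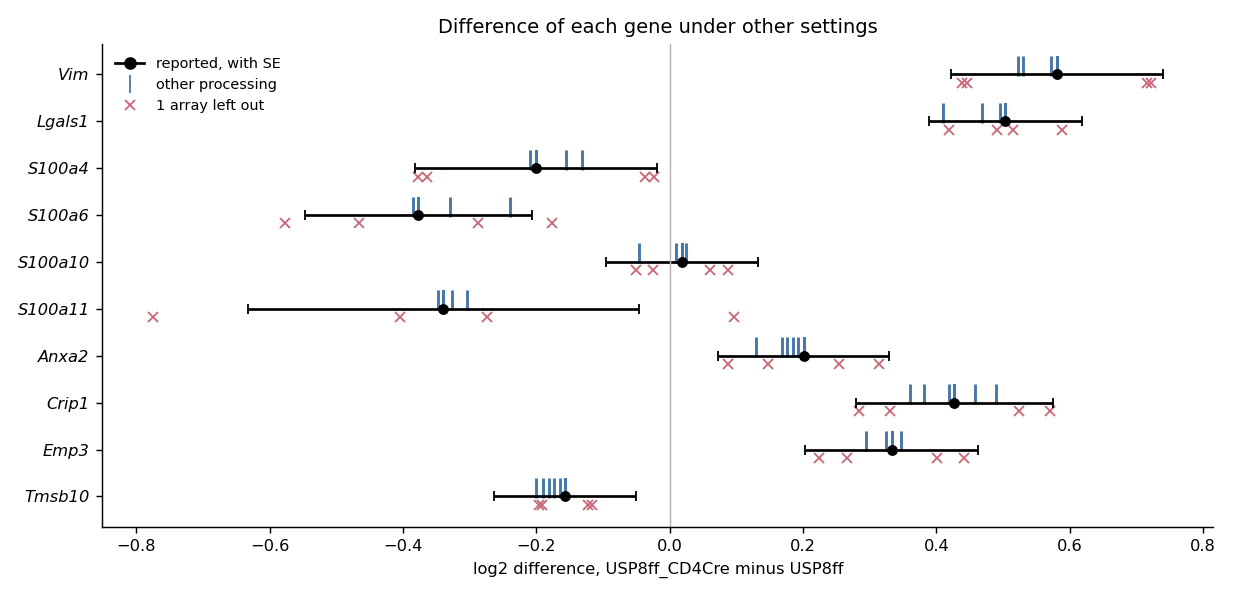
Log2 difference of each of the 10 genes as reported, with its SE, under other processing (blue ticks) and with 1 array left out (red crosses). Vim, Lgals1, Anxa2, Crip1 and Emp3 stay above 0 and S100a4, S100a6 and Tmsb10 below it, while S100a10 and S100a11 cross it.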

How the data were processed

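Per the labels' protocols, RNA of sorted cells was labelled with Cy3 for 1-colour Agilent arrays. Per the file headers, 1 slide held the 4 arrays, and Feature Extraction 10.7.3.1 processed the scan; background subtraction and detrending had been applied. The deposited spot intensities carry no scaling across arrays. The authors' deposited list of 78 probes gives an absolute fold (a ratio) and a p-value, and it lists 0 of the 14 probes described here. A deposited table with 4 columns of per-sample values matching no label was not used.

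From each log2 processed signal, the log2 75th percentile over 43379 non-control spots was subtracted, array by array. Outlier spots were left out (17 of 41174 probes lost). A probe was kept if both pools of either genotype were well above background (19038, 46.2%), and the kept probe of highest mean stood for its gene. Gene names came from a RefSeq table (26690 probes) or the array design (14484 probes). Genotypes were compared over 13062 genes with limma 3.58.1 under R 4.3.3 (lmFit, then eBayes without trend or block), Benjamini-Hochberg adjusted, threshold 0.05, after a test on simulated data. The alternatives tried were scaling by quantiles or medians, background by normexp (offset 50), 2 other filters, the mean of probes, every probe, outliers kept, an eBayes trend, a replicate block, and each array left out.

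The 10 genes and all lists were chosen with earlier results of these data known. All 10 genes were named, with the 2 genes of smallest p from each related family, filament or actin list and the 3 genes nearest in pattern to Vim and to Lgals1. From the genes gained on leaving the DP stage only those with positive differences were named, and from the mitotic list none. Other names were chosen after their values were seen. Figures used matplotlib 3.10.9 in Python 3.11.15.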

Additional observations from a re-analysis of the deposited data

How the results depend on the processing

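Every setting run called 0 genes in limma. Vim (0.44 to 0.72), Lgals1 (0.41 to 0.59), Crip1 (0.28 to 0.57), Emp3 (0.22 to 0.44) and Anxa2 (0.09 to 0.31) kept a positive sign, and S100a4, S100a6 and Tmsb10 a negative one. For genes whose pools do not overlap, leaving out an array cannot turn the sign, so this is no sign of stability. S100a10 turned in 3 settings and S100a11 in 1. The median of the 10 genes was 0.042 with quantile normalization, with 5 genes above 0; the cause was not tested. With 1 array left out that median was 0.09 to 0.15, 5 to 7 genes were above 0, and 396 to 1229 genes had an unadjusted p under 0.05, 396 without USP8ff_CD4Cre replicate 2. The median of the LIM and EMP relatives stayed between 0.22 and 0.42, while the medians of the other S100, galectin, intermediate filament and actin lists changed sign in 4, 2, 5 and 1 of 13 settings.

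Both genotypes have replicates 1 and 2, which the labels do not say are paired. Deviations from the group means correlated at 0.32 across genes between pools of the same number. With the replicate block limma called 0 genes, and 1338 had an unadjusted p under 0.05. In this balanced design the block changes the errors and cannot change a difference.

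The small number of arrays limits the precision, and low signals limit S100a4 and S100a6.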
